A study of Mus musculus with 95 samples.

Results

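The bed nucleus of the stria terminalis (BNST) of male mice that lack Fkbp5 in forebrain glutamatergic neurons was compared with that of wild-type males of the same line. The members are the 12 libraries of the Nex line that are labelled male and BNST, 6 labelled knockout and 6 labelled wild-type, of 95 libraries in the series. They were chosen by these labels alone, and each is named below by its genotype, K for knockout and W for wild type, and the number in its title. Each library counts the RNA of a whole tissue sample from a C57BL/6 mouse at baseline, with no treatment applied, and the brains had been snap-frozen. The Nex line, named FKBP51-Nex-Cre in the labels, carries Cre at the Neurod6 (Nex) locus, and its knockouts delete Fkbp5 where Cre was active. The age of the mice, the part of Fkbp5 that is removed, and whether the wild types carry Cre or a floxed allele could not be read from the sources used here. The series holds 5 or 6 mice in each condition and asks, by its design, about mouse line, brain region, sex and genotype. The other groups used below for comparison are the 12 female BNST libraries and the 11 male hippocampal libraries of the Nex line, and the 12 male BNST libraries of the Dlx line, which deletes Fkbp5 in forebrain GABAergic neurons.

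Fkbp5 encodes FKBP51, which assists the chaperone HSP90 and sits in the complex of the unliganded glucocorticoid receptor and lowers the affinity of the receptor for hormone. Fkbp5 is itself induced by the receptor, which closes a short negative feedback loop, and FKBP51 has also been tied to AKT signalling through the phosphatase PHLPP. The BNST lies between the amygdala and the hypothalamus, takes part in sustained fear and in the stress response, and is built mainly of GABAergic neurons. NEX-Cre recombines in pallial glutamatergic neurons of cortex and hippocampus, which send axons to the BNST.

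Counts per library ranged from 21.22 to 31.24 M in knockouts and from 21.19 to 29.16 M in wild types. Between 24921 and 26166 genes had at least 1 count. Levels are given in CPM, counts per library scaled to a common size. The tissue carried the genes of GABAergic neurons, with Gad1, which makes GABA, between 721 and 1605 CPM over the 12 libraries and the vesicular GABA transporter Slc32a1 between 309 and 383. Markers of striatal projection neurons were abundant too, with a summed level of 16 genes between 1333 and 10171 CPM. The summed level of 17 BNST-defining genes was 2150 to 2590 CPM. How much of either sum comes from genes that other regions also express was not tested. The sums therefore do not compare the amounts of BNST and striatal tissue. Aromatase, Cyp19a1, a defining gene of the male BNST, stood at 0 to 2.97 CPM. The libraries differed most along the first principal component, which held 48.5% of the variance of the 500 most variable genes. W533 lay at one end of it and K583 next (scores -40.8 and -25.5, the other 10 between -7.52 and 19.4). These libraries had the lowest summed striatal level, 1333 and 2416 CPM against at least 4154 CPM in the others. The part of tissue makeup in the results below was not tested.

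Fkbp5 (chromosome 17, 28399094 to 28517527, GRCm38) differed between knockouts and wild types by less than the spread between libraries. In the 6 knockouts it ran from 21.5 to 35.0 CPM with a median of 32.3, and in the 6 wild types from 28.4 to 36.9 CPM with a median of 32.2. The groups overlapped over most of their range, and the lowest library was K557. The mean was 30.5 ± 5.13 CPM (SD, n = 6) against 32.3 ± 3.12 (n = 6), a log2 fold change of -0.08 (SE 0.10, 95% interval -0.28 to 0.12) with exact two-sided permutation p = 0.498. The interval bounds a loss at 0.28 on the log2 scale in this tissue, and without K557 the log2 fold change was 0.00056. Within the annotated span of Fkbp5 lie 4 small annotated genes. The counts cover the whole gene, so they do not read the deleted part alone. In bulk tissue fewer cells of a type and less RNA per cell cannot be told apart.

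If a title number marks the same mouse in both regions, it gives a check of the genotype labels in the hippocampus. Whether it does was not settled here. Of the 6 knockout numbers 4 recur among the hippocampal knockouts of the line, where Fkbp5 ran from 19.4 to 37.5 CPM, and 5 of the 6 wild-type numbers recur among the hippocampal wild types, at 45.1 to 58.3 CPM. K555, K563 and W585 have no hippocampal library of the Nex line with their number. The numbers of K583 and W585 recur in the Dlx line too, there both on male knockouts of either region, so a number does not mark 1 mouse across the lines. Within the BNST the target gene does not tell the genotypes apart, so it gives no check of these 3 labels.

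The knockout effect on Fkbp5 in the male BNST differed between the lines. In the Dlx line Fkbp5 ran from 4.91 to 8.60 CPM in knockout males and from 32.2 to 37.1 CPM in wild-type males, with no overlap (log2 fold change -2.41, SE 0.17). The line by genotype difference was 2.33 on the log2 scale (SE 0.19, edgeR adjusted p = 2.88e-11), and Fkbp5 was the 1 gene called among 19433 (0.00515%). Called here means a Benjamini-Hochberg adjusted p under 0.05. Against the hippocampus of Nex males, where the log2 fold change was -0.99 (SE 0.13), the difference was 0.92 (SE 0.19, 95% interval 0.53 to 1.30) with edgeR adjusted p = 0.562. That region by genotype comparison called 0 of 19086 genes by edgeR, with 356 genes (1.87%) at an unadjusted p under 0.05. DESeq2 called Fkbp5 and Csf3r in it, and edgeR called Fkbp5 once hippocampal K575 was left out.

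The gene of the Cre driver and its cells were sparse in this tissue. Neurod6, a transcription factor of pallial glutamatergic neurons (chromosome 6, 55677822 to 55681263), ran from 0.422 to 3.04 CPM in knockouts (median 1.54) and from 0.139 to 2.09 CPM in wild types (median 0.459). The groups overlapped, and the log2 fold change of 1.12 (SE 0.61) had exact permutation p = 0.0758. Leaving out K555 gave exact permutation p = 0.0368, and leaving out W533 gave 0.0216. In the hippocampus of the same line and sex Neurod6 was 41.4 to 131 CPM in knockouts and 109 to 192 CPM in wild types. The vesicular glutamate transporter Slc17a7, which marks the same neurons, was 1.43 to 36.7 CPM in the 12 BNST libraries and 899 to 1587 CPM in the hippocampal ones. Of the 12 pallial glutamatergic markers tested 3 had a log2 fold change above 0 and none an unadjusted p under 0.05, and their median was -0.18. Without W533 that median was 0.09, and without each other library it stayed below 0. Gm3279, which lies beside Neurod6, had a count of 0 in all members but W533 with 2, below the filter on low counts. Dlx5 and Dlx6, homeobox genes of forebrain GABAergic neurons, had log2 fold changes of 0.08 (SE 0.12) and 0.02 (SE 0.12).

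**Figure D1:**
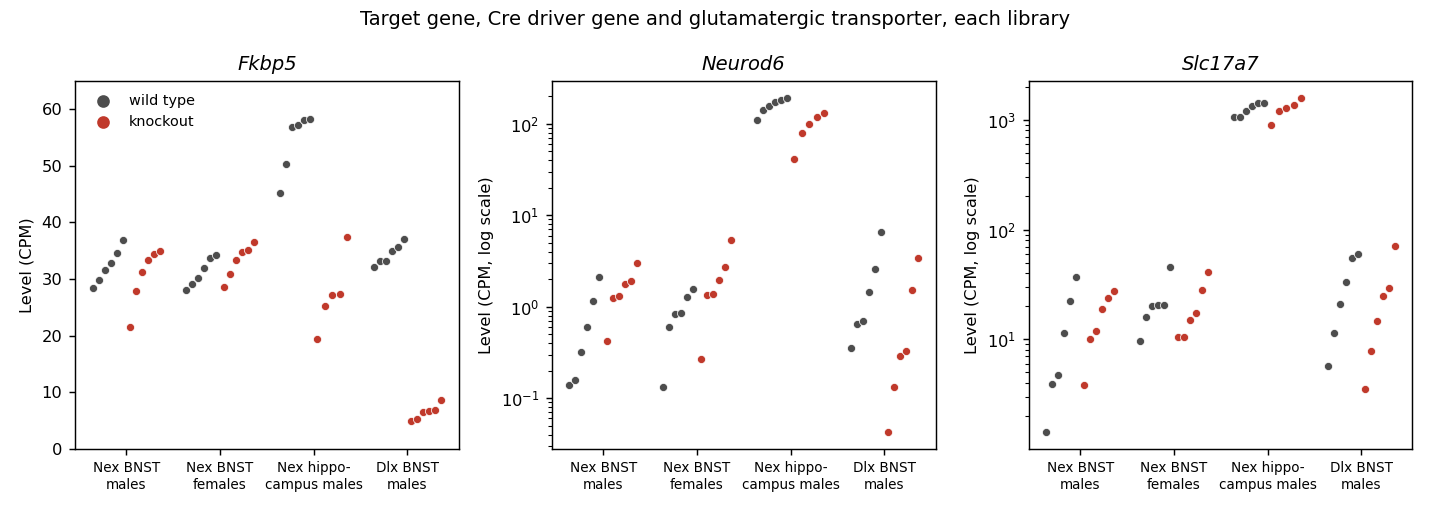
Levels (CPM) of Fkbp5 on a linear axis and of Neurod6 and Slc17a7 on log axes, with 1 point for each library of 4 pairs of groups. Fkbp5 of Nex BNST males lies between 21.5 and 36.9 CPM in both genotypes, while Dlx BNST knockout males lie between 4.91 and 8.60 CPM, and Neurod6 and Slc17a7 are lower in every BNST library than in every hippocampal one.

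Across all genes the comparison of knockout with wild-type males called 0 of 18709 genes by edgeR. An unadjusted p under 0.05 was reached by 386 genes (2.06%), 146 higher in knockouts (0.78%) and 240 lower (1.28%). That total is below the share of 0.05 that such a p gives when no gene differs. DESeq2 called 1 gene, Pyurf, with 388 genes at an unadjusted p under 0.05. Without W573 the count at an unadjusted p under 0.05 was 1880, and limma with library quality weights gave 2556, both with 0 called. Without W585 edgeR called 1 gene, Dnah6.

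In 9 genes (0.0481%) every knockout library lay on one side of every wild-type library. Those higher in knockouts were Fgfrl1, Lnx2, Maml1 and Ryk (0.0214%), and those lower were Pyurf, Cox16, Gm33533, Gm10571 and Fam205a1 (0.0267%). None was called by edgeR, and the exact permutation p of each was 0.00216, the smallest that 6 against 6 libraries allow. Random labels would separate a gene this way with that same probability, and the share seen, 0.0481%, is smaller. The 9 genes are therefore described without a claim of an effect. Gm10571 and Fam205a1, both under 1 CPM on average in each group, were named after their values were seen.

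Pyurf, whose product protects methyltransferases needed for coenzyme Q and for complex I of the respiratory chain, had the smallest p of all genes. Its levels in K555, K557, K563, K571, K575 and K583 were 10.2, 13.7, 10.3, 12.1, 12.3 and 13.9 CPM, and in W525, W533, W553, W573, W579 and W585 they were 15.5, 17.0, 17.6, 18.8, 16.4 and 16.2 CPM. All knockouts were below all wild types, the nearest pair being K583 and W525. The mean of 12.1 ± 1.59 CPM was 28.7% below that of 16.9 ± 1.18 (log2 fold change -0.49, SE 0.09, edgeR adjusted p = 0.506). DESeq2 gave adjusted p = 0.0186, while limma with library quality weights gave 0.113 and 1 surrogate variable 0.222. Leaving out each library in turn kept the log2 fold change between -0.53 and -0.44. Gm37397 and Gm26712 overlap Pyurf on the same strand, so reads could be shared.

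Cox16, needed to assemble complex IV of the respiratory chain, came second among the lower genes. It ran from 2.24 to 2.64 CPM in knockouts (median 2.45) and from 3.02 to 4.44 CPM in wild types (median 3.73). The knockouts were close to each other and the wild types spread more widely, at 2.46 ± 0.155 against 3.76 ± 0.573 CPM (SD, n = 6 each). The log2 fold change was -0.62 (SE 0.13, edgeR adjusted p = 0.780). The annotated span of Cox16 also covers Adam4, Gm20498, Gm3695 and Gm4787 on the same strand, so reads could be shared.

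Fgfrl1, Lnx2, Maml1 and Ryk were higher in every knockout. Fgfrl1, a receptor for fibroblast growth factors that has no kinase domain, ran from 15.3 to 20.2 CPM in knockouts and from 12.4 to 14.95 CPM in wild types, with means of 17.7 ± 1.72 and 14.1 ± 1.21 (SD, n = 6 each). Its log2 fold change was 0.33 (SE 0.08), and of the 24 other members of the FGF signalling list none had an unadjusted p under 0.05. Lnx2, a ubiquitin ligase that binds Numb, ran from 4.29 to 5.93 CPM against 3.06 to 3.77 CPM, with K583 the highest. Maml1, a co-activator of Notch signalling, ran from 18.7 to 21.4 CPM against 15.8 to 17.9 CPM. Ryk, a Wnt receptor, ran from 33.5 to 37.8 CPM against 27.4 to 33.4 CPM. The log2 fold changes of these 3 genes were 0.43 (SE 0.11), 0.23 (SE 0.07) and 0.18 (SE 0.06), each with edgeR adjusted p = 0.9998.

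The remaining genes with the smallest p overlapped between the groups apart from Gm33533. Among the higher ones were Cd86, a costimulatory ligand of myeloid cells at 2.90 to 5.13 CPM in knockouts and 1.35 to 3.57 CPM in wild types, and Cyp2u1, a cytochrome P450, at 9.79 to 14.2 against 6.77 to 10.8 CPM. BC024978, Zc3hav1l, Tmem170 and Gm3055 had log2 fold changes from 0.23 to 0.75. Pcdhgc3, a clustered protocadherin that shares exons with its neighbours, had 0.20 (SE 0.06), and its counting is uncertain. The mitochondrial transfer RNA gene mt-Th had 0.52 (SE 0.19).

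Among the lower ones Ccdc13, a protein of centriolar satellites, ran from 6.98 to 8.64 CPM in knockouts and from 7.22 to 11.8 CPM in wild types, of which only W573 lay within the range of the knockouts. The long non-coding RNA Gm33533 ran from 0.492 to 1.28 CPM against 1.35 to 2.97 CPM, a log2 fold change of -0.96 (SE 0.28). Gadd45a, a stress-induced regulator of the cell cycle, ran from 1.45 to 3.06 CPM in knockouts. It was 3.24 to 3.41 CPM in the wild types apart from W573 at 1.71 CPM. Dram1, a p53 target in autophagy, was -0.62 (SE 0.19), Smim4, a small mitochondrial protein, -0.41 (SE 0.14), and the tautomerase Ddt -0.53 (SE 0.18) on the log2 scale. 2010320M18Rik and 1700047I17Rik2 had log2 fold changes of -0.43 (SE 0.12) and -0.73 (SE 0.22). Gm3362 is annotated as a processed pseudogene, so its reads may come from a copy, and Gm11808 was high in W585 alone at 58.9 CPM.

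**Figure D2:**
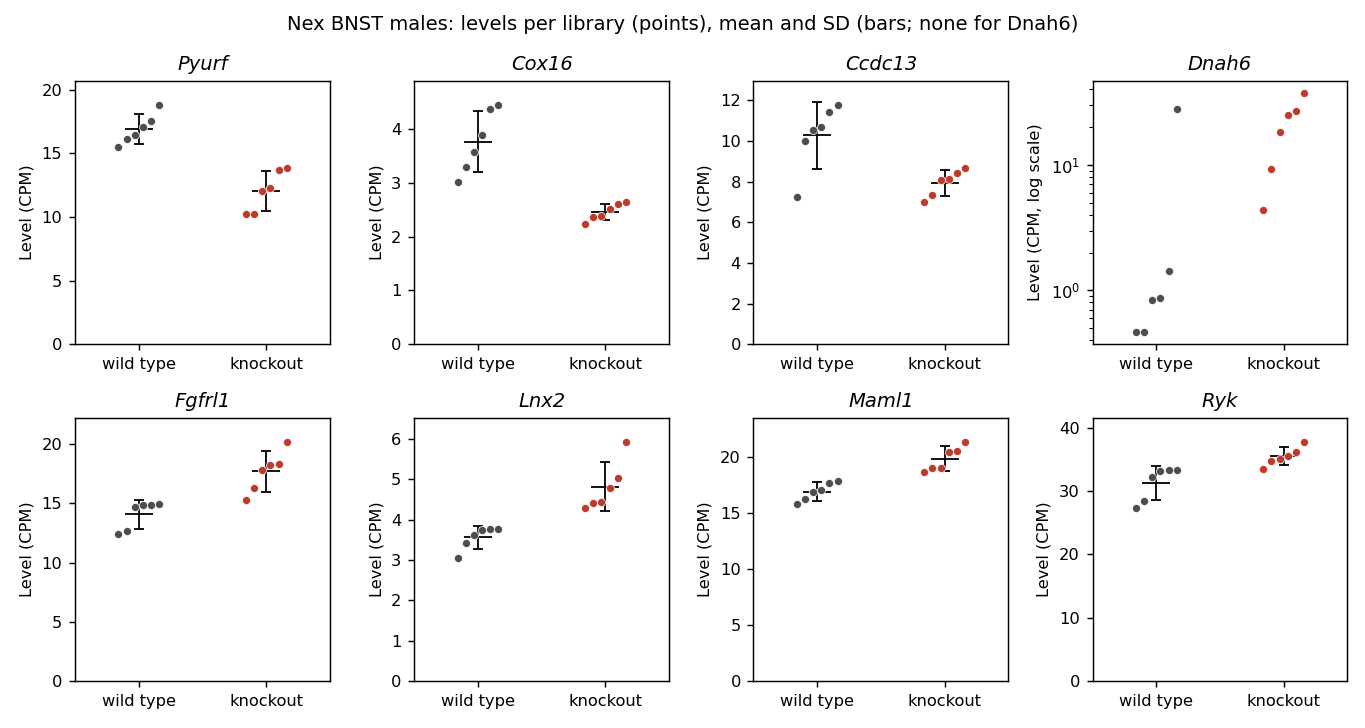
Levels (CPM) of 8 genes in the 6 wild-type and 6 knockout libraries of Nex BNST males, with 1 point for each library and the mean ± SD as bars (none for Dnah6, whose axis is logarithmic). Pyurf and Cox16 are lower and Fgfrl1, Lnx2, Maml1 and Ryk higher in every knockout, while for Ccdc13 and Dnah6 a single wild-type library lies among the knockouts.

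Pyurf and several other genes with a small p lie near Neurod6, the locus that carries Cre. Within 10 Mb of Neurod6 8 of 112 genes tested (7.14%) had an unadjusted p under 0.05, and within 20 Mb 18 of 220 (8.18%), against 2.06% of all genes. Both counts include Aqp1, a choroid plexus marker in which K575 stood apart at 1.97 CPM. The count within 20 Mb includes both Dnah6 and Gm20560, which overlap and may share reads, so the genes counted are not all independent. Gadd45a and Zc3hav1l, described above, are in that count too, at 11.4 and 17.4 Mb from Neurod6. Within 10 Mb of Fkbp5 the share was 9 of 427 (2.11%). The genes near Neurod6 went both ways, 9 higher and 9 lower within 20 Mb, and their median log2 fold change was 0.00. Alleles linked to the Cre locus can be inherited with it, and their part and that of the deletion cannot be told apart here.

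Pyurf lies 2.01 Mb from Neurod6 at 57686576 to 57692078 on chromosome 6. In the hippocampus of Nex males it was 9.86 to 13.0 CPM in knockouts and 11.1 to 13.3 CPM in wild types (log2 fold change -0.14, SE 0.09), and in the BNST of Nex females 10.7 to 13.3 against 12.8 to 18.2 CPM (-0.27, SE 0.09). In males of the Dlx line, whose Cre is driven by sequence of Dlx5 and Dlx6, it was 14.01 to 17.2 against 12.9 to 18.1 CPM (0.01, SE 0.11). Pyurf was thus lower on average in the knockouts of the 3 Nex groups and near 0 in the Dlx males. The differences of these effects from that of the male BNST had edgeR adjusted p = 0.9999 for sex, 0.99997 for region and 0.952 for line.

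Dnah6, a heavy chain of the dynein of motile cilia, lies 17.3 Mb from Neurod6 at 73017606 to 73221651 on chromosome 6. In K555, K557, K563, K571, K575 and K583 it stood at 37.5, 9.28, 26.8, 18.4, 25.1 and 4.34 CPM. In W525, W533, W553, W573 and W579 it stood at 0.463, 0.836, 0.465, 0.873 and 1.44 CPM, and in W585 at 28.1 CPM. All knockouts were above those 5 wild types, and the library labelled W585 was among the knockouts. With all 12 libraries the log2 fold change was 1.91 (SE 0.73, edgeR adjusted p = 0.9998, exact permutation p = 0.0152). Without W585 it was 4.59, with edgeR adjusted p = 8.64e-05. In BNST of Nex females Dnah6 ran from 7.74 to 24.1 CPM in knockouts and from 0.619 to 2.75 CPM in wild types, with no overlap. In the hippocampus of Nex males the groups overlapped, at 1.71 to 15.1 CPM in knockouts and 0.476 to 6.51 CPM in wild types (log2 fold change 1.52, SE 0.78). In the BNST of Dlx males they overlapped as well, with a single knockout at 7.86 CPM, the other 5 between 0.170 and 0.577 CPM and the wild types between 0.398 and 2.46 CPM.

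The ependymal and motile cilia genes, Dnah6 among them, were spread around 0. Of the 27 tested 12 were above 0 and 15 below, with a median log2 fold change of -0.02 that ran from -0.11 to 0.05 when 1 library was left out. Dnah3, a related heavy chain, was the other one with an unadjusted p under 0.05, at 0.523 to 1.51 CPM in knockouts and 0.913 to 1.76 CPM in wild types. Gm20560 overlaps Dnah6 on the opposite strand, and the sources used here do not say whether counting used strand. At 6430584L05Rik, within 1 Mb of Neurod6 and named after its values were seen, the range was 4.46 to 6.70 CPM in knockouts and 2.55 to 5.74 CPM in wild types (log2 fold change 0.45, SE 0.17). There W585, at 3.85 CPM, lay below every knockout. W525, at 5.74 CPM, lay within the range of the knockouts, so this gene gives no check of a label.

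No gene of the receptor pathway in which FKBP51 acts passed the test. The glucocorticoid receptor gene Nr3c1 ran from 103 to 141 CPM in knockouts (median 114) and from 96.8 to 139 CPM in wild types (median 107), a log2 fold change of 0.05 (SE 0.08). The mineralocorticoid receptor gene Nr3c2 had 0.09 (SE 0.10). Of the 6 steroid receptor genes 2 were above 0 and none had an unadjusted p under 0.05. Of the 17 genes of HSP90 and its co-chaperones 7 were above 0 and none had an unadjusted p under 0.05, with a median of -0.02. Fkbp4, whose product FKBP52 competes with FKBP51 in the receptor complex, ran from 71.3 to 106 CPM against 52.7 to 138 CPM (-0.11, SE 0.14), and the p23 co-chaperone gene Ptges3 had 0.13 (SE 0.10). Of the 16 genes of AKT, PHLPP and GSK3 signalling 12 were above 0, with a median of 0.04 and none at an unadjusted p under 0.05. Without W533 the medians of the co-chaperones and of AKT signalling turned, to 0.0084 and -0.012. Over all genes 47.6% were above 0, with a median of -0.01.

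Targets of the glucocorticoid receptor were split. Of the 25 glucocorticoid-induced genes tested 15 had a log2 fold change above 0 and 10 below, their median was 0.02, and none had an unadjusted p under 0.05. Sgk1, a kinase induced by the receptor, ran from 58.2 to 92.9 CPM in knockouts (median 84.1) and from 39.6 to 97.0 CPM in wild types (median 85.9). Tsc22d3, which encodes the anti-inflammatory protein GILZ, ran from 44.2 to 70.2 CPM (median 51.6) against 39.5 to 75.7 CPM (median 59.7). In both genes the wild types spanned the whole range of the knockouts. The smallest p in the list belonged to Ddit4, an inhibitor of mTOR signalling, at 23.99 to 40.1 CPM in knockouts and 21.9 to 46.5 CPM in wild types (log2 fold change -0.28, SE 0.15). The highest log2 fold change was that of the metallothionein Mt2, 0.48 (SE 0.53).

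Immediate early genes, which neurons switch on within minutes of activity, lay mostly above 0 without a call. Of 29 tested 23 had a log2 fold change above 0 (79.3%, against 47.6% of all genes), their median was 0.12, and none had an unadjusted p under 0.05. Egr2, a zinc finger transcription factor, ran from 1.51 to 7.17 CPM in knockouts (median 3.47) and from 0.232 to 3.94 CPM in wild types (median 2.70), a log2 fold change of 0.54 (SE 0.48). Nr4a1, an orphan nuclear receptor, ran from 25.9 to 89.2 CPM (median 38.1) against 24.1 to 50.3 CPM (median 34.7). Fos, a subunit of AP-1, ran from 3.34 to 8.41 CPM (median 5.05) against 2.66 to 6.21 CPM (median 4.35). In all 3 genes the ranges overlapped and the highest library was the same knockout, K555. Dusp1, a phosphatase of MAP kinases that is in both lists, ran from 15.8 to 23.7 CPM (median 20.8) against 13.8 to 21.7 CPM (median 18.98). The summed level of the list was lowest in W533, K583 and K557 (515, 582.7 and 607 CPM), and K555 and K563 were highest (1170 and 1149 CPM). The 3 lowest also had the lowest summed striatal levels, and the part of that in the spread of the list was not tested. Without K563 the median of the list was 0.05 and without K555 it was 0.07.

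Promoters of 3 of these genes are shown because they hold the letters of motifs known to bind factors of activity and glucocorticoid signalling. Each is the RefSeq promoter on GRCm38.p6, from 250 bases before to 50 bases after the start site, read 5′ to 3′ on the strand of the gene, with the motif in capitals. Egr2 (chr10:67537316-67537615, plus strand) holds a CArG box, the site of serum response factor. Dusp1 (chr17:26508423-26508722, minus strand) holds TGACGTCA, the full cyclic AMP response element. Sgk1 (chr10:21993640-21993939, plus strand) holds a match to GNACANNNTGTNC, the glucocorticoid response element.
Egr2: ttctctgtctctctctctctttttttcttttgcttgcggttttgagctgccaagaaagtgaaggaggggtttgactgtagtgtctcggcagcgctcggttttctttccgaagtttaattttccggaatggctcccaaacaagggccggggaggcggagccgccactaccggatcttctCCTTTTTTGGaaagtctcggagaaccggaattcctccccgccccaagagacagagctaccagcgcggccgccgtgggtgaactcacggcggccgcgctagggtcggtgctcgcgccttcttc
Dusp1: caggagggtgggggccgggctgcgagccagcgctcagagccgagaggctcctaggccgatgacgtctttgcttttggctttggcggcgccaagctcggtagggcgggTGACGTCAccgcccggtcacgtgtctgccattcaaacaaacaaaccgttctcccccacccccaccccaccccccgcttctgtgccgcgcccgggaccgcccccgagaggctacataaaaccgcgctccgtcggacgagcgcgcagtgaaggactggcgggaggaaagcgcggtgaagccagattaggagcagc
Sgk1: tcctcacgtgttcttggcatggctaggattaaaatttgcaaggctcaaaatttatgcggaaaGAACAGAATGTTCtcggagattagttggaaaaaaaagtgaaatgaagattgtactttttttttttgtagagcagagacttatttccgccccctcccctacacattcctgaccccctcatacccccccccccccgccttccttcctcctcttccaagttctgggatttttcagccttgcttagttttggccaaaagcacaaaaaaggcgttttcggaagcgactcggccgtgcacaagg
Each motif reads the same on both strands, so 1 search covers both, and in these 3 promoters no match overlapped another motif. The CArG box was found in 1 of 22 immediate early genes with a promoter in the table and in 1.81% of 27025 genes. TGACGTCA was found in 3 of the 22 and in 2.03% of all genes. The glucocorticoid response element was found in 3 of 22 glucocorticoid-induced genes and in 0.537% of all genes. Such a match is a stretch of letters and no evidence of binding. The 3 genes that carry the capitals had log2 fold changes of 0.54 (SE 0.48), 0.19 (SE 0.13) and 0.05 (SE 0.17), none past the threshold.

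**Figure D3:**
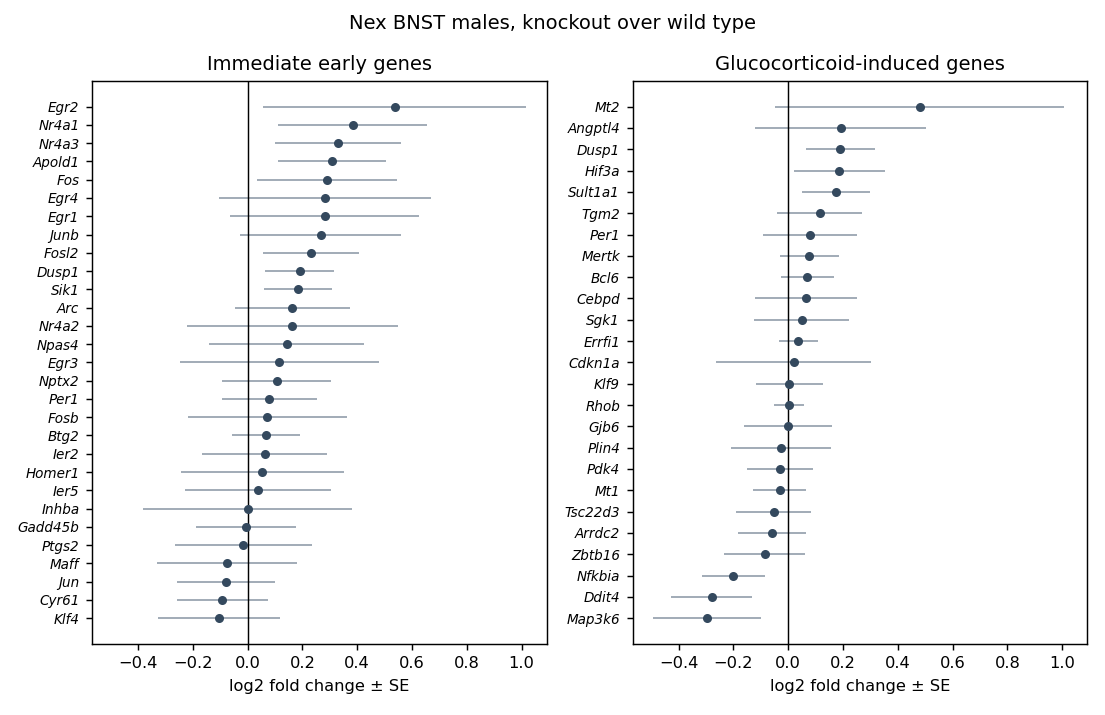
Log2 fold change of knockout over wild type with its standard error for each tested immediate early gene (left) and glucocorticoid-induced gene (right) in Nex BNST males. Of the immediate early genes 23 of 29 lie above 0, of the glucocorticoid-induced genes 15 of 25, and none has an unadjusted p under 0.05.

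Nuclear genes for the respiratory chain lay mostly below 0. Of 77 subunits of complexes I to IV and ATP synthase tested 67 had a log2 fold change below 0, with a median of -0.10 against -0.01 over all genes. Only 3, all lower and of complex I, had an unadjusted p under 0.05, against 2.06% of all genes. These were Ndufab1 at 30.1 to 42.5 CPM in knockouts and 32.6 to 47.6 CPM in wild types, Ndufa9 at 66.0 to 79.9 against 72.9 to 87.4 CPM, and Ndufb6 at 14.03 to 24.6 against 10.1 to 33.0 CPM. All 11 nuclear subunits of complex IV were below 0 with a median of -0.19, led by Cox5b at -0.34 (SE 0.26), and 16 of 17 ATP synthase subunits were below 0 with a median of -0.07. Of 44 mitochondrial ribosomal proteins 37 were below 0, among them Mrps14, Mrpl12 and Mrpl27 at an unadjusted p under 0.05. Mitochondrially encoded genes went the other way, 9 of 13 above 0 with a median of 0.13, and none had an unadjusted p under 0.05. Their median was 0.41 without W573 and 0.05 without K583.

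The level of the respiratory genes varied widely between the libraries of each genotype. The median log2 difference of the 77 subunits from their mean over the 12 libraries was -0.24 in K555, -0.25 in K583 and -0.36 in W573. The other 4 knockouts lay between -0.03 and 0.08 and the other 5 wild types between -0.03 and 0.26, W585 being the highest. The 3 libraries with the lowest values had the highest shares of mitochondrially encoded counts, at 5.62%, 6.46% and 7.38% against 3.65% to 4.98% in the other 9. Without those 3 libraries the median was -0.06 with 5 subunits lower at an unadjusted p under 0.05. Without W573 alone it was -0.16 with 35 such subunits, without K555 -0.06 with 0, without W585 -0.06 with 0 and without W553 -0.06 with 1, and none of these settings called a subunit. Of all genes 3.94% reached that level in either direction without those 3 libraries. Without W573 alone 9.95% did, and 1026 of 18887 genes were lower at that level. The share was 1.84% without K555, 1.63% without W585 and 2.57% without W553.

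Gene length moved with the same result. Length here is the one deposited with the counts, 9468 bases for Fkbp5, and not the genomic span. With the genes tested split into 5 classes by length, in the shortest (up to 1800 bases) the median log2 fold change was -0.06 and 61.9% were below 0. In the longest (from 6800 bases) the median was 0.02 and 42.0% were below 0. The 77 respiratory subunits had a median length of 1701 bases. Of the other lists shorter than the 3737 bases of the median gene tested, more had a median below 0 than above. Below 0 were 38 of 48 cytosolic ribosomal proteins (median length 1752 bases, median log2 fold change -0.06) and 24 of 31 proteasome subunits (2808 bases, -0.05), and without W585 the ribosomal median was 0.0076. Above 0 were the mitochondrially encoded genes (784 bases, 0.13) and the microglial markers (2324.5 bases, 0.14). No other list with a median length up to 2808 bases had a median above 0. Over the shortest class the median difference from the mean of the 12 libraries was -0.14 in K583, -0.10 in W573 and -0.06 in K555, and between 0.01 and 0.09 in the other 9. The part of length and RNA quality in the respiratory result was not tested.

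**Figure D4:**
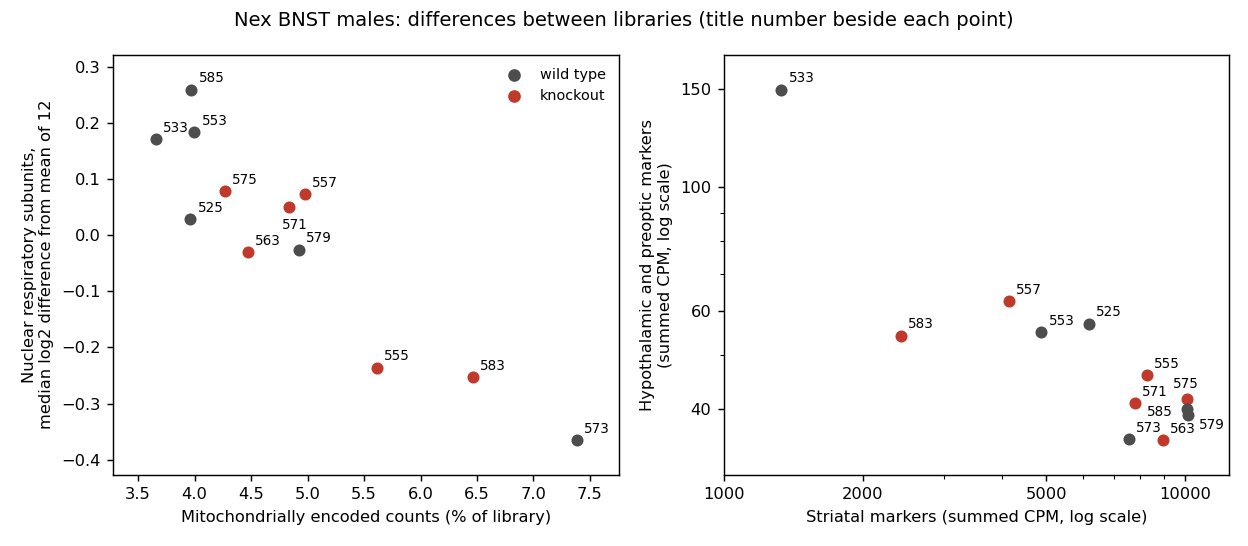
Differences between the 12 libraries of Nex BNST males, with the title number beside each point. On the left the median log2 difference of 77 nuclear respiratory subunits is plotted against the percent of mitochondrially encoded counts, and on the right the summed CPM of hypothalamic and preoptic markers against that of striatal markers on log axes. Libraries W573, K555 and K583 stand apart on the left and library W533 on the right.

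The neuropeptide and hypothalamic lists turned on W533. Neuropeptide genes had 18 of 23 members below 0 with a median of -0.27, and Oxt and Gal, which encode oxytocin and galanin, were the 2 with an unadjusted p under 0.05. Oxt was 25.3 CPM in W533, 0.0351 to 3.80 CPM in the other wild types and 0.422 to 1.16 CPM in knockouts. Gal was 30.2 CPM in W533, 0.351 to 6.53 CPM in the other wild types and 1.43 to 6.96 CPM in knockouts. The exact permutation p was 0.723 for Oxt and 0.478 for Gal, and the log2 difference of Oxt in that test was 0.36 once W533 was left out. Its edgeR log2 fold change kept its sign, from -2.93 to -0.19 over the libraries left out in turn. Hypothalamic and preoptic markers, 12 tested, had a median of -0.92 with W533 and of -0.15 without it, while for the neuropeptides the median without it was -0.04. Kiss1 of that list had a count of 0 in all members. Crh, which encodes corticotropin-releasing hormone, ran from 4.32 to 7.17 CPM in knockouts and from 1.72 to 7.75 CPM in wild types, W533 being the highest with W525 close to it at 7.64 CPM. Sst, which encodes somatostatin, ran from 99.8 to 158 CPM (median 139) against 110 to 227 CPM (median 176), a log2 fold change of -0.31 (SE 0.19).

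Genes of GABAergic neurons and of synapses stood near 0. Of 10 GABAergic neuron genes 4 were above 0 with a median of -0.01, of 16 GABA receptor subunits 11 with a median of 0.03, and of 22 glutamate receptor subunits 9 with a median of -0.01. These 3 medians changed sign with the library left out, running from -0.02 to 0.06, from -0.02 to 0.14 and from -0.04 to 0.02. None of these 48 genes had an unadjusted p under 0.05. Gad2, which makes GABA at terminals, was 1295 CPM in K583 and 637.4 to 763 CPM in the other knockouts, against 572.9 to 1100 CPM in wild types. Of the 16 striatal markers 14 were above 0 with a median of 0.05. That median was -0.17 without W533, -0.11 without K575, -0.05 without K563, -0.03 without W553 and up to 0.23 without K583, so its sign rests on single libraries. Ppp1r1b of that list, the phosphatase inhibitor DARPP-32, ran from 197 to 1451 CPM in knockouts and from 106 to 1608 CPM in wild types. Cholinergic genes had 7 of 9 above 0 with a median of 0.27, which was 0.04 without K557 and 0.18 without W533. Circadian clock genes had 14 of 16 above 0 with a median of 0.06, which ran from 0.0064 without W533 to 0.10 without K583. Neither list had a member at an unadjusted p under 0.05.

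Among non-neuronal cells the choroid plexus list stood apart through K575. Of 12 markers tested 10 were above 0 with a median of 0.60, and Kl, Aqp1 and F5 had an unadjusted p under 0.05. Ttr, the thyroxine carrier that the choroid plexus makes in abundance, was 241 CPM in K575, 27.1 CPM in K571 and 0.422 to 1.62 CPM in the other 4 knockouts. In wild types it ran from 0 to 46.9 CPM, the highest being W533. Without K575 the median of the list was 0.02. Microglial markers had 12 of 18 above 0 with a median of 0.14 (0.06 without K557 or without W533), led by Laptm5 and by Csf1r at 152 to 206 CPM against 130 to 182 CPM (log2 fold change 0.20, SE 0.10). Astrocyte markers had 11 of 15 above 0 (median 0.08, and 0.01 without K583, with Sox9 at an unadjusted p under 0.05), and endothelial and mural markers 14 of 17 (median 0.11, Pdgfrb higher and Tagln lower at an unadjusted p under 0.05). Myelin and oligodendrocyte genes had 9 of 20 above 0 with a median of -0.01, which ran from -0.12 to 0.07 when 1 library was left out.

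**Figure D5:**
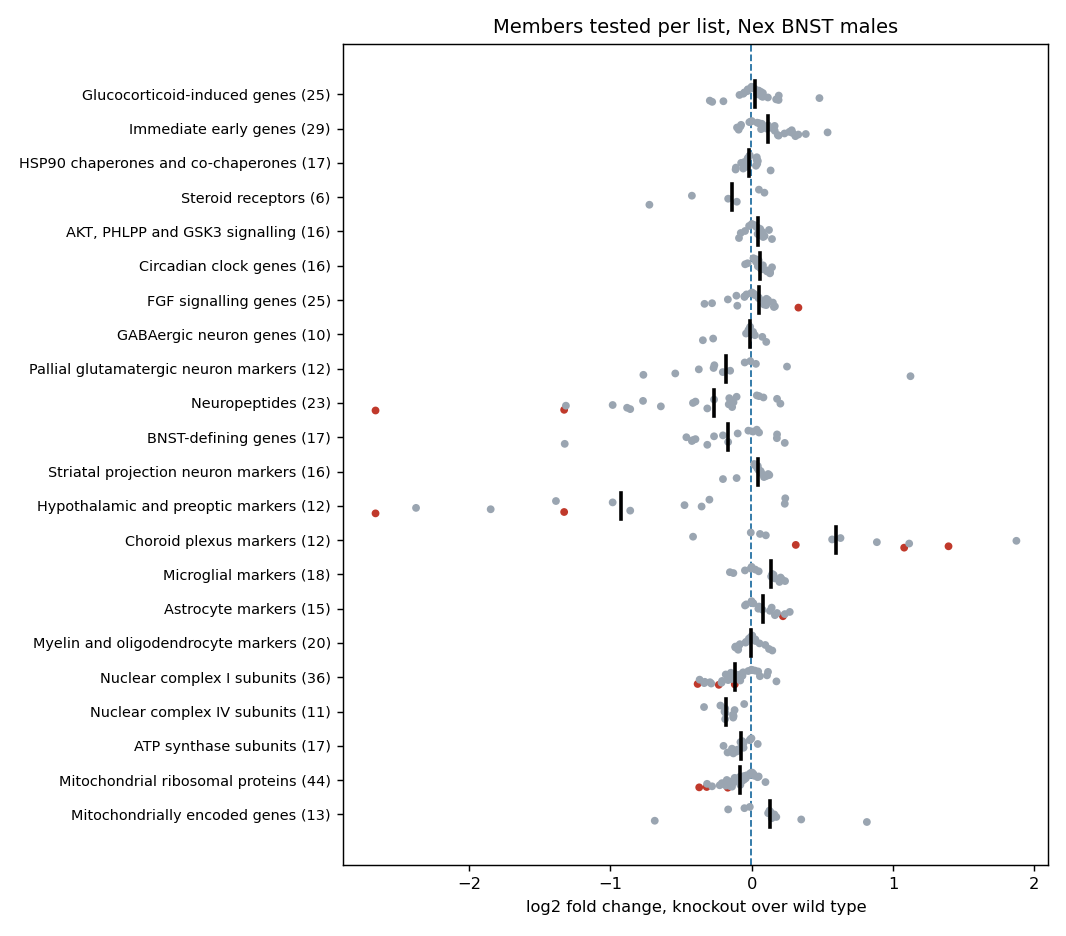
Log2 fold change of knockout over wild type for the tested members of 22 lists in Nex BNST males, with 1 point for each gene, the number tested in brackets, the median of each list as a black bar and the median of all genes (-0.01) as a dashed line. Points with an unadjusted p under 0.05 are red. The hypothalamic and choroid plexus lists lie farthest from 0, at medians of -0.92 and 0.60, and rest on W533 and K575.

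The genotype effect was then set against that in females of the same line and region. In females alone 0 of 18709 genes were called and 260 (1.39%) had an unadjusted p under 0.05. The sex by genotype comparison called 0 of 18709 genes by edgeR, with 214 (1.14%) at an unadjusted p under 0.05, and DESeq2 called 0 as well. The smallest p belonged to 4930481B07Rik (log2 difference of the male and female effects -1.24, SE 0.31), Polh, a polymerase that copies damaged DNA (0.48, SE 0.13), and Gm26280 (1.06, SE 0.29). Of the 9 genes that separated the male groups 7 had the same sign in females (77.8%, against 56.0% of all genes tested). In the BNST of Dlx males 6 of the 9 did (66.7%, against 44.3%), and in the hippocampus of Nex males 5 (55.6%, against 55.9%). Female log2 fold changes were -0.27 (SE 0.09) for Pyurf and -0.25 (SE 0.13) for Cox16, and -0.02 (SE 0.26) for Gm33533. Fgfrl1, Lnx2, Maml1 and Ryk had 0.00 (SE 0.08), -0.01 (SE 0.11), 0.03 (SE 0.07) and -0.06 (SE 0.06). The sex difference of each of these 7 genes had edgeR adjusted p = 0.9999, and since the genes were picked by their male values, the female values beside them are a description. Of the 386 genes at an unadjusted p under 0.05 in males, 250 (64.8%) had the same sign in females. The male and female BNST share no library.

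In the hippocampus of Nex males 2 of 18780 genes were called (0.0106%) and 1864 (9.93%) had an unadjusted p under 0.05. Of the genes at that level in the male BNST, 195 of 368 (53.0%) had the same sign, against 55.9% of the 18010 genes tested in both. Some mice may have given both regions, since 9 title numbers recur. In the BNST of Dlx males 1 of 18547 genes was called (0.00539%) and 805 (4.34%) had an unadjusted p under 0.05. These males share no library with the members, and 150 of 369 (40.7%) had the same sign, against 44.3% of 18248. Csf3r, a receptor of myeloid cells, had the second smallest p of the region by genotype comparison. It ran from 13.7 to 18.6 CPM in BNST knockouts and 11.3 to 17.3 CPM in wild types, and in the hippocampus from 7.15 to 7.99 CPM in knockouts and 9.38 to 11.7 CPM in wild types. The knockouts were thus higher on average in the BNST and lower, without overlap, in the hippocampus (log2 difference 0.71, SE 0.14, edgeR adjusted p = 0.562). The third was 4933427I04Rik (-1.25, SE 0.28). Between the lines 863 of 19433 genes (4.44%) had an unadjusted p under 0.05. The smallest p after Fkbp5 belonged to Hist1h4j, a histone H4 gene with near-identical copies (-1.80, SE 0.43), and Ccdc13 (-0.56, SE 0.14), both with edgeR adjusted p = 0.952.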

How the data were processed

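The values used are raw counts per gene and library in the table the authors deposited, after alignment by HISAT2 2.0.5 and counting by featureCounts 1.5.0-p3, per the submitters' processing notes, which also name DESeq2. The build and the use of strand are not named there. Of 54409 gene identifiers found in GENCODE M21, 53499 (98.33%) had its GRCm38 coordinates, so positions are on GRCm38. The deposited FPKM values and the authors' own comparison columns had lost their decimal marks and were not used.

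The counts went into edgeR 4.0.16 under R 4.3.3, with filterByExpr, TMM scaling, the quasi-likelihood test and Benjamini-Hochberg adjustment over all genes at 0.05. The 24 libraries of the Nex BNST were fitted together, and the region and line comparisons used 23 and 48 libraries. Log2 fold changes set knockout over wild type, and each SE is the fold change divided by the root of F. CPM are counts per scaled library size. For single genes log2(CPM + 0.5) entered an exact permutation test, two-sided. Depth sets the precision of low genes. Per the series design text a condition holds 5 or 6 mice, so each library was taken as 1 mouse.

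The alternatives were DESeq2 1.42.0, its size factors, no filter on low counts, limma 3.58.1 quality weights, 1 surrogate variable (sva 3.50.0), the 2 groups alone, another pseudocount, no TMM factor, each library left out, and the title number as a block. Leaving out W533 with K583, or W573 with K555 and K583, was added after seeing the data. The scripts were tested on simulated data.

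Genes named are Fkbp5, Neurod6, Dlx5, Dlx6 and Gm3279, the 12 with the smallest p in each direction at a mean of at least 1 CPM, up to 3 members of each list at an unadjusted p under 0.05, and the called genes and 3 smallest p of each interaction. Slc17a7, Ttr, Cyp19a1, Gad2, the genes named for their role in a list, Gm10571, Fam205a1 and 6430584L05Rik were named after values were seen. There were 48 gene lists with 872 symbols in all, among which Pigy and Sts were not matched. The members, lists and tests were chosen with earlier results of these data known. Promoter sequences are from RefSeq.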

Additional observations from a re-analysis of the deposited data

Results flagged for a closer look

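A library counted as standing apart when the gap between the highest or lowest of the 6 libraries of a group and its neighbour took up most of the group's range (Dixon's test at the 95% level). Of 134 groups tested 18 did. The level of the test is 1 in 20, but many genes were named for a small p or after their values were seen. The items also share libraries, so that rate is no yardstick for the 18.

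K575 stood apart in the choroid plexus genes, with Ttr at 241 CPM, Kl at 19.8 CPM, F5 at 5.10 CPM and Aqp1 at 1.97 CPM. W533 stood apart in Ttr at 46.9 CPM, in Oxt at 25.3 CPM, in Gal at 30.2 CPM and in the summed level of hypothalamic and preoptic markers at 149 CPM. K583 stood apart in Gad2 at 1295 CPM, Cyp2u1 at 14.2 CPM, Psma7 at 48.3 CPM and the summed level of thalamic markers at 1841 CPM.

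W573 stood apart in its share of mitochondrially encoded counts, 7.38%, in Kl at 11.9 CPM, in Zc3hav1l at 10.9 CPM and in Gadd45a at 1.71 CPM. W585 stood apart in Dnah6 at 28.1 CPM and in Gm11808, a protein-coding gene model, at 58.9 CPM. Fkbp5 was noted because its genotype effect differed between the Nex and Dlx lines in the male BNST by 2.33 on the log2 scale (SE 0.19, edgeR adjusted p = 2.88e-11).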

How the results depend on the processing

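DESeq2 called 1 gene (Pyurf) between knockout and wild-type males where edgeR called 0, and leaving out 1 library gave 0 to 1 called (Dnah6, without W585). The count at an unadjusted p under 0.05, 386 with all 12 libraries, was 1880 without W573, 2556 with limma quality weights, 1454 with no filter on low counts, 609 with 1 surrogate variable, 752 without W573, K555 and K583, and 175 when only the 2 groups were fitted, which leaves fewer libraries to set the spread. The cause of the other shifts was not tested. The other single libraries left out gave 309 to 551, and leaving out both W533 and K583 gave 365.

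In the region comparison DESeq2 called 2 genes (Fkbp5, Csf3r), and leaving out 1 library gave 0 to 1 called. With the title number as a replicate block on the 9 numbers with both regions it called 0 genes, with 343 at an unadjusted p under 0.05, against 323 without the block on the same libraries. Correlations of same-numbered libraries ran from -0.037 to 0.169, 3 of 9 over 0.1, and 3 of 9 were highest with their own number. Correlations between different tissues cannot decide whether a number marks the same mouse, and the main test did not pair the samples. In the line comparison limma quality weights called 4 genes (Syncrip, Fkbp5, Emd and 2010315B03Rik).

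Leaving out each library moved the log2 fold change of Fkbp5 between -0.13 and 0.00056 and that of Dlx6 between -0.048 and 0.11. Dlx6 was -0.0074 with 1 surrogate variable and Sox9 -0.016 with limma quality weights. In the permutation test the log2 difference ran from -0.14 to 0.0012 for Fkbp5, 0.68 to 1.11 for Neurod6, -0.019 to 0.17 for Dlx5, -0.056 to 0.13 for Dlx6 and -0.76 to 0.36 for Oxt. List medians ran from -0.0029 to 0.18 for monoamine receptors, which were 0.18 without W573, K555 and K583, from -1.12 to -0.15 for hypothalamic markers and from 0.023 to 0.97 for choroid plexus markers, which were 1.15 without W533 and K583. Depth limits the precision of genes near 1 CPM, such as Neurod6 and Oxt.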
